A study of Mus musculus with 11 samples.

Results

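The Trim5-Trim30 cluster is a run of related genes on mouse chromosome 7, between 104218793 and 104507849 in the GRCm38 build, a span of 289.1 kb that starts 2.71 Mb beyond the end of Pde2a. Its 10 members, Trim5, Trim6, Trim12a, Trim12c, Trim30a, Trim30b, Trim30c, Trim30d, Trim34a and Trim34b, were taken by symbol from the 55487 annotated genes of the count files. The cluster was chosen by the measured counts themselves, because Trim12a was nearly absent from knockout hearts and Trim34b was counted almost only in them, so the genotype differences of the members are given as a description, with no p. The fit across all genes included them, and the number that passed its threshold is given only beside the share of all genes. All 10 members passed the limit of 10 counts summed over the 11 libraries, as did 24177 genes in all. RNA was sequenced from whole embryonic hearts at E14.5, 1 library per heart, to see how gene expression differed when Pde2A, a phosphodiesterase that breaks down cAMP and cGMP, was missing. The 5 Pde2A-/- hearts (replicates A, B, 14, D and 15) and the 6 Pde2A+/+ hearts (replicates 7, 11, 6, 8, H and E) came from untreated embryos of the B6;129P2-Pde2A<tm1Dgen> line, obtained by crossing heterozygous parents, with both sexes used and the sex of single hearts not given. Knockout and wild-type embryos thus share the mixed background of that line, and the allele is constitutive. The labels do not give the strain origin of chromosome 7 around Pde2a, so the allele and any strain sequence linked to it cannot be told apart.

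TRIM proteins share a RING domain that acts as an E3 ubiquitin ligase, followed by B-box and coiled-coil regions and, in many members, a SPRY domain that binds the target. The genes of this cluster are relatives of primate TRIM5, which binds the capsid of incoming retroviruses, and several of them are induced by interferon and feed back on innate immune signalling. They are best known in immune cells and fibroblasts. In a whole heart, fewer cells of a type and less RNA per cell cannot be told apart.

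Close relatives lie side by side in the cluster, and their coding sequences show how near they are. Trim34a and Trim34b were 98.6% identical over 1444 aligned coding bases, Trim5 and Trim12c 96.6% over 1491, Trim5 and Trim12a 97.1% over 891, and Trim12a and Trim12c 96.4% over 891. The coding sequence of Trim12a has 891 bases against 1491 in Trim12c and in Trim5. Among the Trim30 genes, Trim30a and Trim30d were 90.2% identical over 1488 bases. Identity this high bears on the counts, because a read that maps equally well to several places was counted on none of them. Of all windows of 75 bases along the annotated transcripts of each member, the share found in no other gene's transcripts was 57.5% in Trim34b, 70.5% in Trim34a, 80.3% in Trim5 and 83.4% in Trim12c, and between 94.4% and 100% in the other 6 members. Trim34a and Trim34b shared 786 windows, 29.5% of those of Trim34a and 42.5% of those of Trim34b. Trim12a shared only 96 of its windows with Trim12c, or 1.61%, and 2.98% with Trim5.

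The promoters of 4 members carry an interferon response motif, which is shown because interferon-inducible genes were higher in the same knockout hearts, as given after the members. The 250 bases before the annotated RefSeq start on GRCm38.p6 were searched on both strands for GAAA repeated after a gap of 2 bases, which was present in 2.98% of 32851 promoters of that length. It was found in Trim5 39 bases before the start, in Trim12c 19 bases, in Trim30a 26 bases and in Trim30d 31 bases before it, and in none of the windows of the other 6 members. The log2 difference of Pde2A-/- over Pde2A+/+ was above 0 in Trim12c (0.88) and Trim30a (1.78) and below 0 in Trim5 (−0.92) and Trim30d (−2.84). Among the other 6, it was above 0 in Trim6, Trim34b, Trim30b and Trim30c and below 0 in Trim12a and Trim34a. A part of the motif in these differences was not tested. The 4 windows are given 5′ to 3′ on the strand of the gene, with the motif, which reads as its reverse complement here, in capitals.
Trim5 (chr7:104288107-104288356, - strand): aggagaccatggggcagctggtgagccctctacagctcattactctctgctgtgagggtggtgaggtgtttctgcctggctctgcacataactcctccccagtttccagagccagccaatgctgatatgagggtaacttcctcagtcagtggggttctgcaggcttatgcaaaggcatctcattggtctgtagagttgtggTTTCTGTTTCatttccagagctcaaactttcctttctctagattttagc
Trim12c (chr7:104353350-104353599, - strand): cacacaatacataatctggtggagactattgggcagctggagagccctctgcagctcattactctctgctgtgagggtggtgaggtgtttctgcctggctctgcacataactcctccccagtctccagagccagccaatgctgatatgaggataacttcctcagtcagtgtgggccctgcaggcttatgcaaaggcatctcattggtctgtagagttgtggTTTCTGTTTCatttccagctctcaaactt
Trim30a (chr7:104465194-104465443, - strand): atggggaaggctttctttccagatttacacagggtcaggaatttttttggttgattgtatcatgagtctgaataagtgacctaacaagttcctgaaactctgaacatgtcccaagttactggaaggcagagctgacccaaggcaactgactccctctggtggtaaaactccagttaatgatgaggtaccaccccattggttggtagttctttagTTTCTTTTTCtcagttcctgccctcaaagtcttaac
Trim30d (chr7:104507850-104508099, - strand): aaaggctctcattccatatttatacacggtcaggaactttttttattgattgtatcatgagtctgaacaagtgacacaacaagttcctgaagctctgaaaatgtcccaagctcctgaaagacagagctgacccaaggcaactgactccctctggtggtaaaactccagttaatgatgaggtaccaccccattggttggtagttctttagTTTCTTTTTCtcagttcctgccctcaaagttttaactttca
The Trim5 and Trim12c windows were 95.2% identical over 230 aligned bases and carried the same 10 letters, and the Trim30a and Trim30d windows were 86.3% identical over 205 bases. The Trim12a window was identical to that of Trim5 over 191 aligned bases, but its annotated start lies further upstream, and the motif was found 10 bases after that start. The Trim34a window held none before the start and 1 motif 10 bases after it. Trim30a has another RefSeq start downstream, whose window held none before it and 1 motif 2 bases after it. A second motif, TTC and GAA with 3 bases between them, which STAT factors recognise, was in the Trim30c window alone and in 7.02% of all promoters.

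The depth was 35865537 to 42835382 sense reads on genes per heart. Pde2a, the targeted gene, was counted 0 to 2 times in any heart of either genotype, so the labels could not be checked by it. The paper describes Pde2A in neonatal mouse cardiomyocytes, and these counts are not read as its absence from wild-type hearts. Why they were so low was not tested. On the first principal component, Pde2A-/- replicate A lay closest to the wild-type side (15.9 against 22.01 to 23.7 in the other 4). Pde2A+/+ replicate 7 stood apart from the other wild-type hearts on the first (−41.4 against −17.4 to −9.92) and on the second (−39.2 against −4.75 to 22.4). Replicate 7 also held 31.5 CPM of the lymphocyte markers, against 0.0522 to 0.305 CPM in the other 10 hearts, while the cardiomyocyte markers summed to between 23850 and 31280 CPM in every heart. CPM are counts scaled by the TMM-normalized library size. Leaving out Pde2A-/- replicate A changed the log2 difference of Trim12a from −8.65 to −9.95, and that of the other 9 members by at most 0.16, with no change of sign. Leaving out Pde2A+/+ replicate 7 changed that of Trim30b from 1.09 to 1.35 and that of each other member by at most 0.07.

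Of the 10 members, 5 passed an adjusted p under 0.05 in the higher direction and 4 in the lower one, where 8.93% of all genes tested passed as higher, 5.67% as lower and 14.6% in either direction. The median log2 difference was 0.84 over the members and −0.02 over all genes. The genotypes did not overlap in 5 members, Trim12a, Trim34b, Trim12c, Trim30a and Trim30d, against 8.49% of all genes. Nothing is read from these counts, since the members were picked on this contrast. Along the cluster the log2 difference was above 0 in Trim6, below 0 in Trim34a, Trim5 and Trim12a, above 0 in the run from Trim34b to Trim30a, and below 0 in Trim30d at the far end. Within that run Trim30b did not pass and its genotypes overlapped, and the sign of Trim34a turned, to 0.23, when reads were counted without regard to strand.

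**Figure D1:**
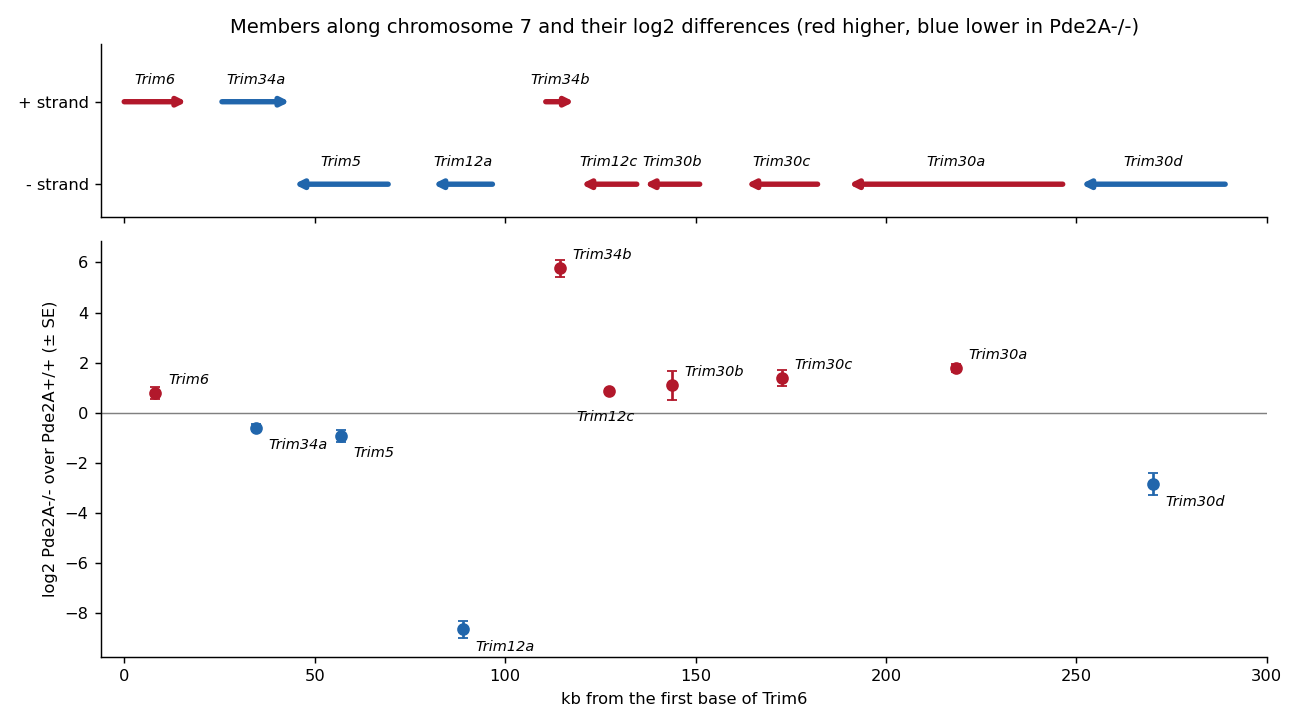
Upper panel, the 10 members drawn to scale as arrows on their strand, in kb from the first base of Trim6; lower panel, their log2 difference of Pde2A-/- over Pde2A+/+ with its standard error, drawn at the middle of each gene. Trim12a, at −8.65, and its neighbour Trim34b, at 5.76, stand far from the others, which lie between −2.84 and 1.78.

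Trim12a and Trim12c are 2 of the 3 mouse relatives of TRIM5 in the cluster. Trim12a had 3 counts in Pde2A-/- replicate A, 1 in replicate B and 0 in replicates 14, D and 15. In Pde2A+/+ hearts it had between 314 and 419 counts with a median of 372. The 4 reads of all knockout hearts stand against 2230 of the wild-type hearts, which makes Trim12a 465-fold lower, with an exact 95% interval of 181 to 1707 that covers counting error only. Of its windows in the reference, 94.4% are in no other gene's transcripts. Where reads of another strain's sequence would map was not tested.

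Trim12c, the member with the most counts, acts with Traf6 in NF-kB and type I interferon signalling. It had 1079, 1368, 1193, 1074 and 1104 counts in replicates A, B, 14, D and 15 of Pde2A-/-. In Pde2A+/+ hearts it had between 539 and 737 counts with a median of 643. Every knockout heart was above every wild-type heart. The level was 30.1 ± 1.49 CPM (SD, n = 5) in Pde2A-/- and 16.3 ± 1.64 CPM (n = 6) in Pde2A+/+ hearts, a log2 difference of 0.88 with a standard error of 0.07.

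The summed level of Trim12a and Trim12c was closer between the genotypes than either gene. It was 30.1 ± 1.48 CPM (n = 5) in Pde2A-/- and 25.9 ± 2.39 CPM (n = 6) in Pde2A+/+ hearts. The ranges of 28.2 to 32.3 and of 22.3 to 28.6 CPM overlapped, and the log2 difference of the sum was 0.22. Trim12a made up between 34.8% and 38.5% of the sum in wild-type hearts and at most 0.277% in knockout hearts. With Trim5 added, the log2 difference of the sum was 0.20.

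Trim5 was counted at a low level in all hearts. Its counts were 12, 19, 12, 18 and 18 in replicates A, B, 14, D and 15 of Pde2A-/-. In Pde2A+/+ hearts they were between 17 and 48, with 29 and 31 in the middle of the order. The lowest wild-type heart, replicate 6 with 17 counts, lay among the knockout hearts, and the log2 difference was −0.92 with a standard error of 0.25. Its level was 0.411 ± 0.0983 CPM (n = 5) against 0.777 ± 0.234 CPM (n = 6).

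**Figure D2:**
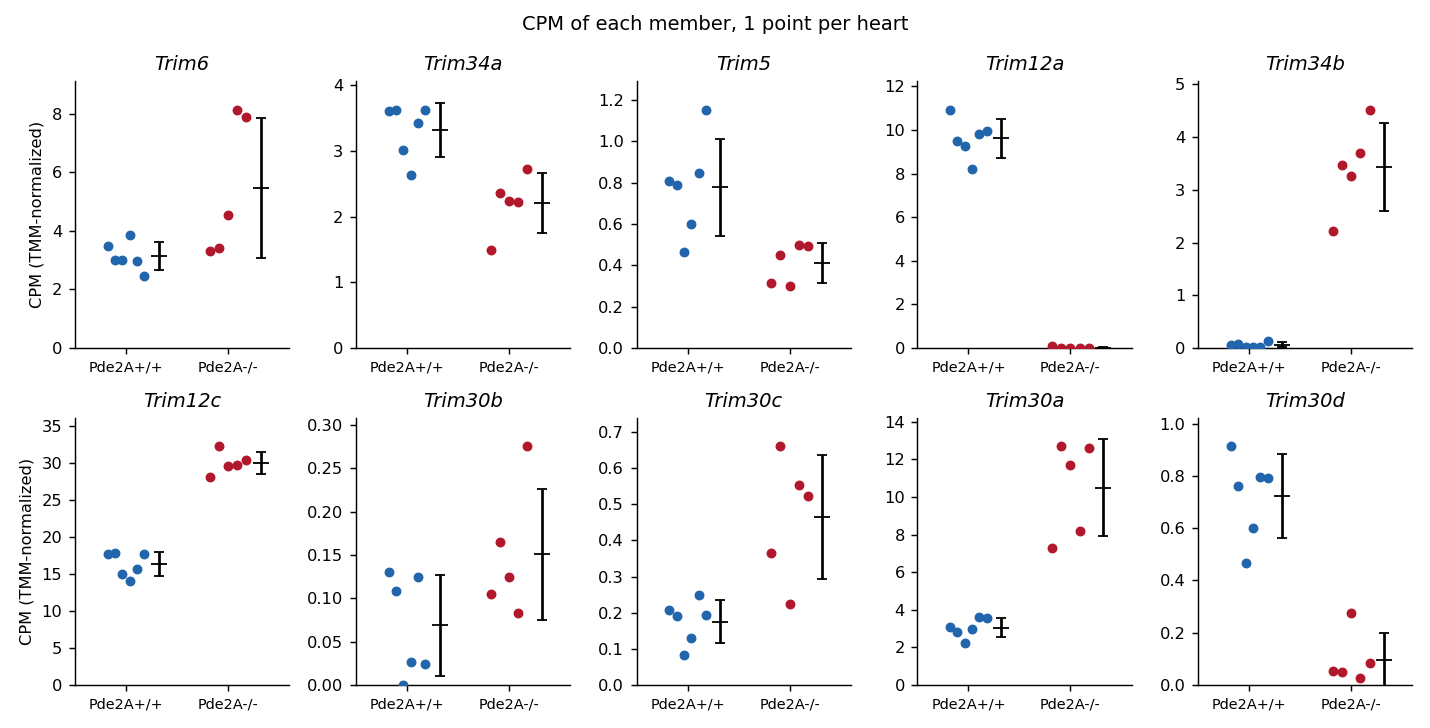
CPM of each member in every heart (points), with the mean and SD of each genotype beside them, each panel on its own linear axis from 0. The 5 Pde2A-/- hearts lie above the 6 Pde2A+/+ hearts in Trim34b, Trim12c and Trim30a and below them in Trim12a and Trim30d, and the genotypes overlap in the other 5 members.

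Trim34a and Trim34b are near-identical genes of the TRIM34 type, an interferon-inducible relative of TRIM5. Trim34b had 85, 147, 131, 133 and 164 counts in replicates A, B, 14, D and 15 of Pde2A-/-. In Pde2A+/+ hearts it had between 1 and 6 counts with a median of 1.5. The 660 reads of the knockout hearts stand against 14 of the wild-type hearts, a ratio of 56.6 with an exact 95% interval of 33.5 to 104 for counting error. The level was 3.43 ± 0.829 CPM (n = 5) against 0.0594 ± 0.0470 CPM (n = 6). Because 42.5% of the windows of Trim34b are also in Trim34a, only part of either gene can be read separately.

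Trim34a had 57, 100, 90, 80 and 99 counts in replicates A, B, 14, D and 15 of Pde2A-/-. In Pde2A+/+ hearts it had between 101 and 151 counts with a median of 135.5. In CPM, 4 of the 5 knockout hearts lay below all wild-type hearts, and replicate 15, at 2.73 CPM, lay just above the lowest of them, at 2.64 CPM. The log2 difference was −0.59 with a standard error of 0.15. When reads were counted without regard to strand, it was 0.23, with the opposite sign.

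The sign turned on 1 stretch of the last exon of Trim34a. The antisense gene Gm47248, on the - strand from 104261465 to 104262174, faces 609 of the 2592 exon bases of Trim34a, or 23.5%, and all 609 lie after the last coding base at 104261447, in the 3′ UTR. A read in this stretch is counted on Trim34a by strand but on neither gene without strand. The number of reads that lie there was taken from the deposited count of Gm47248 for its opposite strand. On its own strand Gm47248 had 2 counts over all hearts. In Pde2A-/- hearts 0 reads of Trim34a lay in the stretch in 5 of 5 hearts. In Pde2A+/+ hearts between 37 and 67 did, with a median of 62.5, which was 35.5% to 49.6% of the reads of the gene. Against 3 counts over the 5 knockout hearts together, the stretch was at least 92.8-fold lower in Pde2A-/- hearts. All 498 windows of 75 bases in the larger of its 2 parts, of 572 bases, were in no other gene's transcripts in the reference.

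Outside the stretch, Trim34a did not stand lower in knockout hearts. There it had 2.21 ± 0.451 CPM (n = 5) in Pde2A-/- and 1.88 ± 0.121 CPM (n = 6) in Pde2A+/+ hearts, a log2 difference of 0.20. Replicate A was the lowest of all hearts, at 1.49 CPM, and the other 4 knockout hearts, from 2.22 to 2.73 CPM, lay above the 6 wild-type hearts, which ran from 1.67 to 2.02 CPM. The summed level of Trim34a and Trim34b over the whole genes was 5.64 ± 1.27 CPM (n = 5) against 3.38 ± 0.437 CPM (n = 6), with a log2 difference of 0.72. The genotypes overlapped in that sum through replicate A alone, at 3.71 CPM against a highest wild-type value of 3.77. Trim34a made up 37.6% to 40.7% of the sum in knockout and 96.2% to 99.3% in wild-type hearts.

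**Figure D3:**
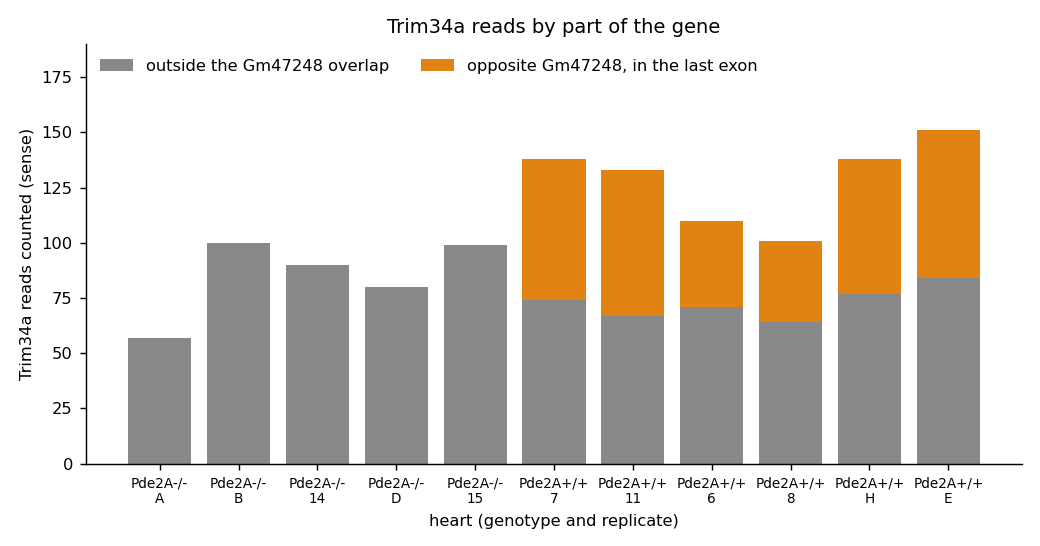
Sense reads of Trim34a in each heart, split into reads in the part of the last exon that faces Gm47248 (orange) and all other reads (grey). The orange part is 0 in all 5 Pde2A-/- hearts and 37 to 67 reads in the 6 Pde2A+/+ hearts, while the grey parts of the genotypes, 57 to 100 and 64 to 84 reads, overlap.

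The Trim30 genes differed in both directions. Trim30a, an interferon-inducible gene whose protein limits NF-kB signalling through Tab2 and Tab3 and restrains the Nlrp3 inflammasome, had 279, 538, 470, 295 and 458 counts in replicates A, B, 14, D and 15 of Pde2A-/-. In Pde2A+/+ hearts it had between 81 and 148 counts with a median of 116. All knockout hearts were above all wild-type hearts, with replicates A and D the lowest of them, at 7.28 and 8.19 CPM against 11.7 to 12.7 CPM in the other 3. The level was 10.5 ± 2.57 CPM (n = 5) against 3.05 ± 0.518 CPM (n = 6), a log2 difference of 1.78 with a standard error of 0.17.

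Trim30d went the other way. It had 2, 2, 11, 1 and 3 counts in replicates A, B, 14, D and 15 of Pde2A-/-, against 17 to 35 in Pde2A+/+ hearts, with 28 and 32 in the middle of the order. The genotypes did not overlap, and replicate 14 was the highest knockout heart. The log2 difference was −2.84 with a standard error of 0.43, and −3.71 without replicate 14. The 201 windows of 75 bases that Trim30d shares with Trim30a are 5.25% of its own.

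Trim30c and Trim30b were rarely counted. Trim30c had 14, 28, 9, 20 and 19 counts in Pde2A-/- replicates A, B, 14, D and 15 and 3 to 10 counts with a median of 7.5 in Pde2A+/+ hearts. In CPM, 4 of 5 knockout hearts were above all wild-type hearts, and the log2 difference was 1.39 with a standard error of 0.32. Trim30b had 3 to 10 counts in Pde2A-/- and 0 to 5 in Pde2A+/+ hearts, with a log2 difference of 1.09 and a standard error of 0.58. Summed over the 4 Trim30 genes, the level was 11.2 ± 2.70 CPM (n = 5) in Pde2A-/- and 4.01 ± 0.734 CPM (n = 6) in Pde2A+/+ hearts, without overlap, and Trim30a made up 92.5% to 94.95% of it in knockout and 71.3% to 80.2% in wild-type hearts.

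**Figure D4:**
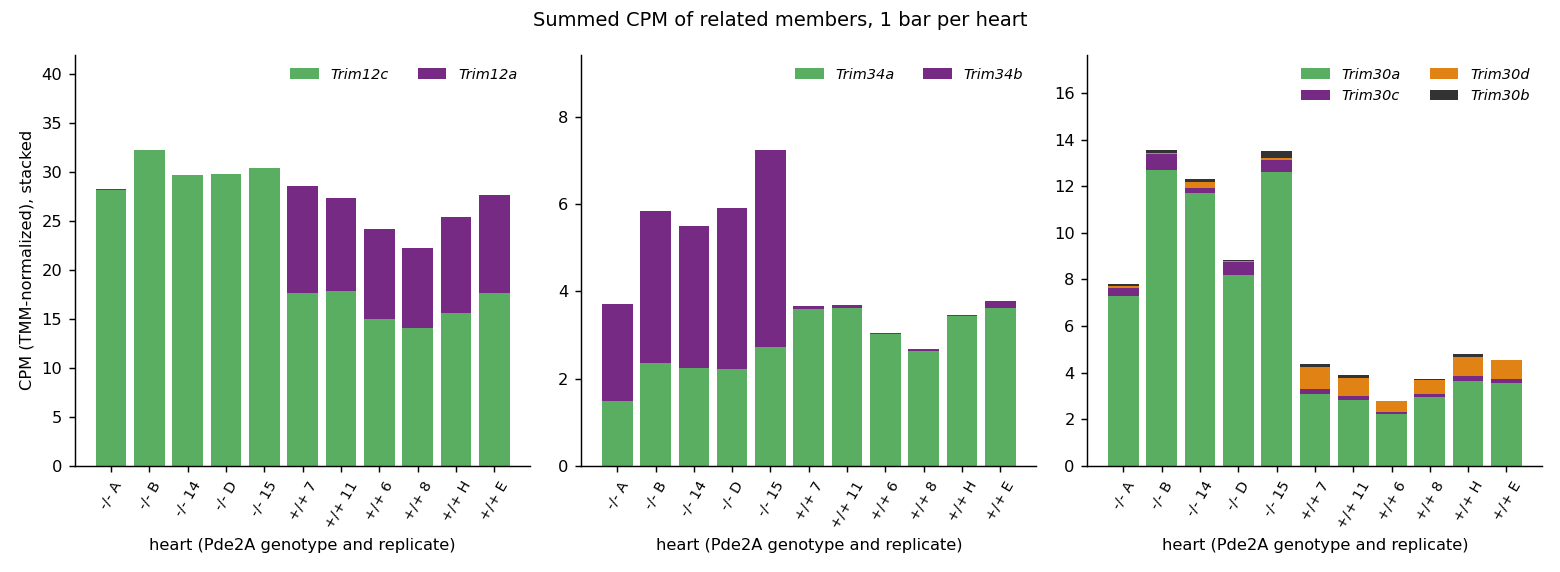
Stacked CPM in each heart for Trim12c with Trim12a, Trim34a with Trim34b, and the 4 Trim30 genes. The summed bars of Trim12a and Trim12c overlap between the genotypes (28.2 to 32.3 CPM in -/- and 22.3 to 28.6 CPM in +/+), those of the Trim30 genes do not (7.80 to 13.6 CPM in -/- and 2.77 to 4.80 CPM in +/+).

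Trim6, the first gene of the cluster, builds free ubiquitin chains with the conjugating enzyme Ube2k that activate the kinase encoded by Ikbke. It had 127, 145, 183, 293 and 286 counts in replicates A, B, 14, D and 15 of Pde2A-/-. In Pde2A+/+ hearts it had between 103 and 148 counts with a median of 115. Replicates 14, D and 15 were above all wild-type hearts, and replicates A and B, at 3.31 and 3.42 CPM, lay within the wild-type range of 2.47 to 3.87 CPM. The mean of 5.46 ± 2.38 CPM (n = 5) against 3.13 ± 0.479 CPM (n = 6) therefore rested on 3 hearts, and the log2 difference was 0.80 with a standard error of 0.24.

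Per length of exon, in TPM (counts divided by exon length and scaled to the same total in each heart), Trim12c was the highest member in both genotypes, with 28.2 ± 0.884 TPM (n = 5) in Pde2A-/- and 14.9 ± 1.68 TPM (n = 6) in Pde2A+/+ hearts. In Pde2A+/+ hearts Trim12a at 5.68 ± 0.591 TPM and Trim34a at 4.37 ± 0.580 TPM came next and overlapped. They were followed by Trim30a at 2.53 ± 0.453 TPM and Trim6 at 2.18 ± 0.318 TPM, which overlapped each other. Trim5 at 0.721 TPM, Trim30d at 0.656 TPM, Trim30c at 0.349 TPM, Trim34b at 0.111 TPM and Trim30b at 0.0312 TPM made up the rest, each overlapping the next.

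In Pde2A-/- hearts the order below Trim12c was Trim30a at 8.94 ± 2.06 TPM, Trim34b at 6.50 ± 1.52 TPM, Trim6 at 3.92 ± 1.71 TPM and Trim34a at 2.98 ± 0.577 TPM, each overlapping the next. Trim30c at 0.949 TPM and Trim5 at 0.391 TPM overlapped as well, and Trim30d at 0.0906 TPM, Trim30b at 0.0699 TPM and Trim12a at 0.0125 TPM were lowest, again each overlapping the next. Among the 60 Trim genes tested, Trim12a ranked 31st by mean TPM in wild-type and 60th in knockout hearts, and Trim34b 54th and 31st. Trim12c ranked 22nd and 19th, and Trim30a 36th and 28th. With only windows found in no other gene counted as length, Trim12c stayed highest, at 34.2 TPM in Pde2A-/- and 18.1 TPM in Pde2A+/+ hearts, but some neighbours in these orders changed places. In Pde2A-/- hearts Trim34b, at 11.3 TPM, then stood above Trim30a at 9.58 TPM, and Trim34a, at 4.12 TPM, above Trim6 at 3.91 TPM. In Pde2A+/+ hearts Trim34a, at 6.04 TPM, stood above Trim12a at 5.83 TPM.

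The names of the replicates are letters or numbers, and the labels do not say what this means. Within letter-named and within number-named hearts, the log2 differences of the mean log2 CPM kept the sign of the whole in all 10 members. In the 5 members without overlap of the genotypes, any split of the hearts keeps the sign, so for them this was fixed in advance. Those values include 0.85 and 0.90 for Trim12c, 1.33 and 2.12 for Trim30a, 4.66 and 5.34 for Trim34b, and −6.96 and −7.52 for Trim12a. Where the genotypes overlapped, they were 0.73 and 0.84 for Trim6, −0.81 and −0.36 for Trim34a, and −1.16 and −0.68 for Trim5. They were 0.52 and 1.20 for Trim30b and 1.06 and 1.01 for Trim30c. An effect of the naming was not tested by this.

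Over the 11 hearts, log2 CPM deviations from the mean of the genotype were correlated between each of the 6 members with a mean of at least 1 CPM and 14023 other genes, as a description of which genes varied alike. For Trim34a the 3 highest Pearson correlations were with interferon-inducible Ifit3b (0.962), with Tapbp, which loads peptides on MHC class I (0.945), and with Irf7, a transcription factor of the interferon response (0.943). For Trim30a they were with Isoc2a (0.979), with Dhx58, an interferon-inducible RNA sensor (0.957), and with Cit (0.943). For Trim6 they were Plpbp, Xpo1 and Irak1bp1 (0.953 to 0.965). For Trim12a they were Zscan29, Chml and Arrdc4 (0.944 to 0.961). For Trim12c they were Abhd14b, Hpn and Ppox (0.925 to 0.957), and for Trim34b Nr1h2, Tceal3 and Dclre1c (0.913 to 0.918). Trim12a had 0 to 3 counts in the knockout hearts and Trim34b 1 to 6 in the wild-type hearts. Their deviations in those hearts rest on single reads, so nothing is read from the genes listed for these members. High values are found among so many genes over 11 points, and the points share library depth and cell makeup.

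Interferon response genes were higher in the same knockout hearts. Of 23 genes of this list, 22 rose by the quasi-likelihood test of edgeR with p adjusted over all genes, and 0 fell, also by DESeq2 or at an unadjusted p under 0.05, with a median log2 difference of 2.39 against −0.02 over all genes. Isg15, a ubiquitin-like protein, rose by 4.52 on the log2 scale (SE 0.36, adjusted p = 7.41e-06), Ifit1, which binds foreign RNA, by 4.30 (SE 0.31, adjusted p = 4.59e-06), and Usp18, which removes Isg15 from proteins, by 4.2 (SE 0.35, adjusted p = 9.65e-06), each higher in 5 of 5 knockout hearts than in any wild-type heart. Over the tested genes of the list, the summed level was 249.7 to 515 CPM in Pde2A-/- and 107.5 to 134 CPM in Pde2A+/+ hearts, and replicate A was the lowest knockout heart in it, as it was in the macrophage and erythroid sums and in Trim6, Trim34a, Trim34b, Trim12c and Trim30a. The part of the interferon response in the members' differences was not tested.

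Macrophage markers moved with the genotype too. Of 15 markers, 13 rose and 0 fell, with 0 lower by DESeq2 or at an unadjusted p under 0.05 too, and their sum was 318 to 408 CPM in Pde2A-/- and 161.5 to 245 CPM in Pde2A+/+ hearts. F13a1 rose by 1.3 on the log2 scale (SE 0.19, adjusted p = 0.000696), Pf4 by 1.24 (SE 0.16, adjusted p = 0.000326) and the Fc receptor gene Fcgr1 by 1.19 (SE 0.13, adjusted p = 0.000102, edgeR). Of 7 erythroid markers 6 rose, led by Hemgn, Klf1 and Epb42, which rose by 4.94, 4.10 and 2.96 on the log2 scale (adjusted p between 6.42e-06 and 4.86e-05), and 0 fell by edgeR, by DESeq2 or at an unadjusted p under 0.05, with sums of 468 to 927 CPM against 125 to 504.5 CPM. Of 5 endothelial markers 1 rose, Pecam1, by 0.34 (SE 0.07, adjusted p = 0.00612), and of 8 cardiomyocyte markers 2 fell, Tnni1 by 0.41 and Nkx2-5 by 0.27 (adjusted p = 0.0127 and 0.0103, edgeR). Of the 4 lymphocyte markers tested, 0 passed by edgeR or DESeq2 and 2 were lower at an unadjusted p under 0.05, and their sum was at most 0.305 CPM outside Pde2A+/+ replicate 7. The part of these cells in the members' differences was not tested.

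TRIM genes elsewhere in the genome give the setting of the cluster. Of 59 other Trim genes, 50 were tested, of which 8 rose and 4 fell, 16.0% and 8.0% against 8.93% and 5.67% of all genes, with a median log2 difference of 0.01. The largest changes among called genes of at least 1 CPM were those of Trim58, which acts in the loss of the nucleus from red cell precursors, by 3.15 (SE 0.34, adjusted p = 7.37e-05), Trim10, which is needed in red cell differentiation, by 1.43 (SE 0.32, adjusted p = 0.0131), and Trim14, an adaptor of antiviral signalling, by 1.16 (SE 0.24, adjusted p = 0.00891, edgeR). The 4 that fell, named after their values were seen, were Trim67 by 0.75, Trim2 by 0.31, Trim35 by 0.29 and Trim28, the corepressor also called KAP1, by 0.26 on the log2 scale. The number that fell was 2 without Pde2A-/- replicate 14, 15 or D or without Pde2A+/+ replicate 6.

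Of 6 interferon-inducible Trim genes outside the cluster, 5 rose and 0 fell, with 0 lower by DESeq2 or at an unadjusted p under 0.05 as well, and a median log2 difference of 0.73. All of them but Pml are also among the other Trim genes above, so these lists are not separate. Trim25, which activates the RNA sensor RIG-I, rose by 1.0 (SE 0.09, adjusted p = 2.2e-05), from 52.3 ± 2.67 CPM (n = 6) to 104 ± 17.9 CPM (n = 5), and in all 5 knockout hearts lay above all wild-type hearts. Trim21, the cytosolic antibody receptor, rose by 0.84 (SE 0.15, adjusted p = 0.00322, edgeR), in 4 of 5 knockout hearts above all wild-type hearts. It lies on chromosome 7 too, from 102557921 to 102565486, between Pde2a and the cluster. For Trim21 as well, the allele and strain sequence linked to it cannot be told apart. Pml, which forms nuclear bodies, rose by 0.62 (adjusted p = 5.02e-05) and Trim56 by 0.27 (adjusted p = 0.0492, edgeR). Trim26 had a log2 difference of −0.03 with a standard error of 0.06. The log2 differences of the called genes ran from 0.27 to 1.16. Of the members with the interferon response motif, Trim30a had 1.78 and Trim12c 0.88, while Trim5 had −0.92 and Trim30d −2.84. Trim34a had −0.59 over the whole gene. The differences between these genes were not tested.

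The next list holds enzymes and partners through which TRIM5, TRIM6 and TRIM30A are known to act. Of 14 such genes, 4 rose and 1 fell, 28.6% and 7.14% against 8.93% and 5.67% of all genes, with a median log2 difference of 0.08. Tab3, an adaptor of the kinase TAK1 and a target of Trim30a, rose by 0.64 (SE 0.14, adjusted p = 0.00913), from 26.9 ± 1.24 CPM (n = 6) to 42.0 ± 11.1 CPM (n = 5). Sqstm1, the autophagy receptor p62, rose by 0.39 (SE 0.11, adjusted p = 0.0262) and Ube2k, the conjugating enzyme that works with Trim6, fell by 0.25 (SE 0.07, adjusted p = 0.0276, edgeR). The other 2 that rose, named after their values were seen, were Nlrp3 by 0.99 and the kinase gene Tbk1 by 0.13 on the log2 scale. Ube2n, the conjugating enzyme of TRIM5, had a log2 difference of −0.30 (SE 0.10, adjusted p = 0.0657), and Traf6 of 0.03 (SE 0.05). The number that rose was 2 without Pde2A-/- replicate 14, 15 or D or Pde2A+/+ replicate 6. The number that fell was 0 without any of these and 3 without Pde2A-/- replicate A or B.

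Within 1 Mb of the cluster the annotation holds 163 further genes, many of them olfactory receptors, and 119 of these had 0 counts in all hearts. Of 19 that were tested, 0 rose by edgeR or DESeq2 and 1 was higher at an unadjusted p under 0.05, while 4 fell by edgeR, 2 by DESeq2 and 5 at an unadjusted p, with the 4 making 21.1% as lower against 5.67% of all genes. Within 2 Mb, 7 rose and 7 fell by edgeR, so the lack of rises within 1 Mb did not extend to the wider window. The number tested within 2 Mb is not given here, so these counts are not compared with the shares of all genes. The 19 genes had a median log2 difference of −0.08. Gm15133, an antisense gene on the + strand from 104315019 to 104324838 that starts inside Trim12a, had 0 or 1 counts in each Pde2A-/- heart and 4 to 10 in each Pde2A+/+ heart (log2 difference −4.49, SE 0.63, adjusted p = 0.000606). The olfactory receptor gene Olfr608 had 0 to 5 counts against 5 to 15 (log2 difference −2.04, SE 0.50, adjusted p = 0.0193). The adult globin gene Hbb-bt fell by 1.43 (SE 0.31, adjusted p = 0.0105) and Cavin3, a caveolar protein gene, by 0.30 (SE 0.06, adjusted p = 0.0101, edgeR). Hbb-bt, at 511 ± 93.8 CPM (n = 5) against 1373 ± 715 CPM (n = 6), fell while 6 of the 7 erythroid markers rose. The remaining marker, Alas2, had a log2 difference of −0.60 (SE 0.32, adjusted p = 0.221, edgeR). The other globin genes tested here did not pass. Their log2 differences were −0.51 for Hbb-bs, −0.08 for Hbb-bh0, 0.24 for Hbb-y, 0.62 for Hbb-bh2 and 0.79 for Hbb-bh1. Inside the cluster the processed pseudogene Gm16464 had 0 to 6 counts in Pde2A-/- and 8 to 13 in Pde2A+/+ hearts, and the pseudogene Trim30e-ps1 had 0 counts in every heart. The p-values set the genotype difference against the spread between these hearts, whose litters are not given.

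**Figure D5:**
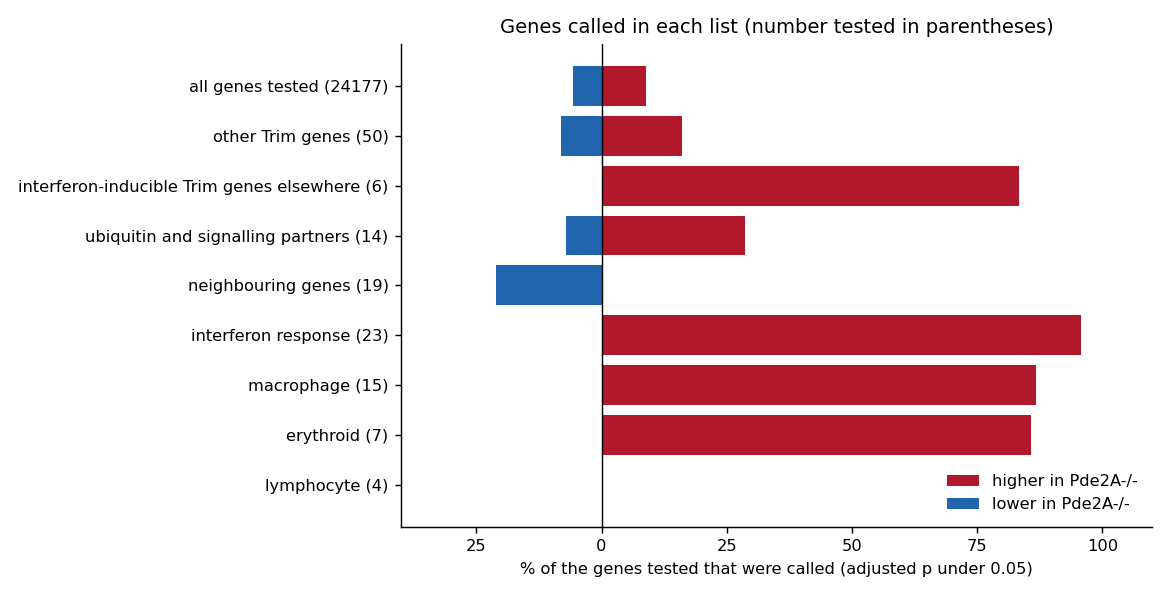
Share of the tested genes of each list that were called higher (red, to the right) or lower (blue, to the left) in Pde2A-/- hearts at an adjusted p under 0.05, with the same shares over all genes tested (8.93% and 5.67%) in the top row. The lists of interferon response, interferon-inducible Trim, macrophage and erythroid genes have a red bar and no blue one, the genes within 1 Mb of the cluster a blue bar and no red one, and the lymphocyte markers neither. The interferon-inducible Trim genes, apart from Pml, are also in the row of other Trim genes.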

How the data were processed

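RNA of 11 embryonic hearts was sequenced single-end on a NextSeq 500 from stranded poly(A) libraries. The authors mapped the reads with STAR to GRCm38/mm10, which is C57BL/6J sequence, and deposited for each heart whole-number counts per gene without regard to strand and for either strand, without normalization. The version of STAR is not given in the sources used here. Reads on several places or on more than 1 gene are in no gene's count, and reads not on exactly 1 gene were between 19.6% and 22.4% of a heart's total and stayed out of library sizes.

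Genotypes were taken from the sample titles. Of 55487 gene identifiers, 55227 matched GENCODE M21. Sense counts were used, and genes whose counts summed to 10 or more were compared between genotypes with edgeR 4.0.16 (TMM, quasi-likelihood test, Benjamini-Hochberg over all genes, threshold 0.05) in R 4.3.3, which was tested on simulated data. CPM in logarithms use a prior count of 2, and TPM use the exon length of GENCODE M21. The first 2 principal components were computed on log2 CPM of 500 genes. Shared windows were searched among the GENCODE M21 transcripts, and not in the genome as planned. The members and gene lists were chosen with earlier results of these data known, and no count adjusted over a list alone is given. Named are all members, the 3 called genes with the largest changes per list at 1 CPM or more, the 5 largest of the neighbours with any Trim pseudogene, and the 3 genes most like each member. Alternatives were DESeq2 1.42.0, its size factors, filterByExpr, no filter, reads of both strands, replicate naming style as a covariate, a fold change of at least 2, a window of 2 Mb, windows of 50 and 100 bases, and each heart left out. For 3 lists of markers, leaving out Pde2A-/- replicate A or Pde2A+/+ replicate 7 was added after seeing the data. Intervals and floors cover counting error only.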

Additional observations from a re-analysis of the deposited data

Results flagged for a closer look

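Of 76 groups of values examined for a sample far from the others, 4 held one, and chance flags about 1 in 20 groups. Trim30d was 0.274 CPM in Pde2A-/- replicate 14 against 0.0278 to 0.0827 CPM in the other 4 knockout hearts, with a gap of 0.777 of the whole range. Trim10 was 57.8 CPM in Pde2A-/- replicate B against 28.8 to 36.1 CPM in the others. Fcgr1 was 5.12 CPM in Pde2A-/- replicate A against 7.36 to 8.27 CPM in the others. Gm15133 was 0.0276 CPM, a single read, in Pde2A-/- replicate 15, and 0 in the other 4.

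Reads on the strand opposite to Trim12c, which the comparisons above do not use, were above the wild-type level in every knockout heart. They numbered 53 to 95 in Pde2A-/- and 8 to 12 in Pde2A+/+ hearts, which was 4.94% to 6.94% and 1.37% to 2.02% of the sense reads of Trim12c, where all genes together gave 4.31% to 5.17% per heart. That strand is the one of Trim34b, whose annotated end lies 1844 bases from Trim12c. The difference was not tested.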

How the results depend on the processing

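No paired analysis was possible because the labels give no litter or other pairing of the hearts. Which hearts came from the same litter is thus not known. Of 168 log2 differences of members under alternatives, 164 moved by less than the spread between hearts, 3 moved by more in the same direction (Trim12a to −9.95 without Pde2A-/- replicate A, Trim34b to 6.24 without Pde2A+/+ replicate E, Trim30d to −3.71 without Pde2A-/- replicate 14), and 1, Trim34a, turned to 0.23 with reads of both strands, where its reads opposite Gm47248 are not counted. With DESeq2, 7 other Trim genes fell in place of 4, 3 partner genes in place of 1, and 2 neighbours in place of 4. With filterByExpr, 3 partner genes and 2 neighbours fell, and with naming style as a covariate 2 partner genes fell. At a fold change of at least 2, 4 other Trim genes rose and 0 fell, 1 interferon-inducible Trim gene rose, and 0 partner genes rose or fell. Within 2 Mb, 7 neighbours rose and 7 fell, of a number tested that is not given here. The cause of these changes was not tested. With each heart left out, 7 to 12 other Trim genes rose and 2 to 5 fell, 4 to 5 interferon-inducible Trim genes rose, 2 to 5 partner genes rose and 0 to 3 fell, 0 to 1 neighbours rose (1 without Pde2A+/+ replicate 11) and 3 to 4 fell. Of the members, which were picked on this contrast, 4 to 5 passed as higher and 2 to 4 as lower, with 2 lower without Pde2A-/- replicate 14 or D. With all hearts, 8.93% of all genes tested passed as higher and 5.67% as lower. Nothing is read from these counts of members. Of the marker lists, 13 macrophage and 6 erythroid genes rose without Pde2A-/- replicate A or Pde2A+/+ replicate 7, and 22 to 23 interferon response genes. Trim30b had 10 counts or fewer in every heart and Trim30d 11 or fewer in the knockout hearts, so their log2 differences rest on few reads.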
